A study of Mus musculus with 32 samples.

Results

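The 40 genes described here encode nuclear subunits of the mitochondrial respiratory complexes: 23 of complex I, 4 of complex II, 5 of complex III and 8 of complex IV. They were chosen by name, and each was read from a probe set that carries its symbol alone. All 40 were found among the 19938 genes that such probe sets represent, and where a gene had several, the one with the highest mean over all 32 arrays was used. The study profiled BAL17, a B cell lymphoma line of BALB/c mice, and BAL17VII, a line derived from it, in culture and after implantation into the brain, to model lymphoma that starts there. The groups were cultured BAL17VII cells (6 arrays), cultured BAL17 cells (6 arrays), brains at day 21 after implantation of BAL17VII cells (5 arrays), brains at day 28 after implantation of BAL17 cells (5 arrays), brains at day 21 after implantation of BAL17 cells (5 arrays) and brains of mice injected with phosphate-buffered saline, PBS, at day 28 (5 arrays). All mice were wild-type BALB/c, each implanted brain received 500000 cells, and PBS brains were sampled at day 28 alone, so at day 21 the day differs together with the cells. Each line is a single line, the host mice keep their own immune cells, and a brain sample mixes lymphoma cells with brain tissue. Values are log2 of the deposited array intensity, on which a difference of 1 is a factor of 2, and levels of different genes are not compared because probe sets differ in brightness.

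The respiratory chain passes electrons from NADH through complex I, or from succinate through complex II, to ubiquinone, then through complex III and cytochrome c to complex IV, where oxygen is reduced. Complexes I, III and IV pump protons, and ATP synthase uses the gradient. Most subunits are encoded in the nucleus and imported, while a small core of complexes I, III and IV comes from mitochondrial DNA, so assembly needs both genomes. Neurons rely on this pathway for the energy of synaptic transmission, and brain is among the tissues richest in it, whereas proliferating lymphoid cells also draw much ATP from glycolysis.

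The labelled tissues carried their markers. The mean over 12 neuron markers was 5.94 ± 0.14 in BAL17VII cells and 5.98 ± 0.13 in BAL17 cells (SD, n = 6 each), below every array's median over all probe sets (6.35 to 6.54), against 10.86 ± 0.06 in PBS brains (SD, n = 5). Over 10 B lineage markers the means were 9.01 ± 0.10 in BAL17VII cells and 8.90 ± 0.05 in BAL17 cells. In brains the same mean was 7.06 ± 0.59 with BAL17VII at day 21, 7.84 ± 0.11 with BAL17 at day 28, 7.72 ± 0.20 with BAL17 at day 21 and 6.16 ± 0.13 with PBS (SD, n = 5 each). BAL17VII brain 1 had 6.09 for B lineage and 5.47 for dividing cells, within the range of the PBS brains, so the counts and calls of BAL17VII brains are set beside those without it where they differ. Arrays of a group correlated at 0.974 to 0.989 over all probe sets, and separate cultures are not stated for either line, so p-values measure the spread between these samples, which may be technical.

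Promoters of members that moved together or against the rest are shown here, since nuclear respiratory genes are known targets of NRF1 (nuclear respiratory factor 1), GABPA (also called NRF2 alpha) and YY1. The 150 bases before the annotated start are printed 5′ to 3′ on the gene's strand, from RefSeq on build GRCm38.p6, with matches to the NRF1 motif in capitals. Ndufa1 (chrX:37191239-37191388, minus strand) and Cox7a2 (chr9:79759854-79760003, minus strand) had among the largest differences between lines and brains. Ndufa10 (chr1:92473759-92473908, minus strand) was higher in lines with the deposited values. Ndufa5 (chr6:24527691-24527840, minus strand) and Sdha (chr13:74350241-74350390, minus strand) were lower in lines and are shown because they hold 1 and 3 matches. The table lists 2 starts for Ndufa5, and the 150 bases before the other (chr6:24527527-24527676) hold no match to any of the 3 motifs.
Ndufa1: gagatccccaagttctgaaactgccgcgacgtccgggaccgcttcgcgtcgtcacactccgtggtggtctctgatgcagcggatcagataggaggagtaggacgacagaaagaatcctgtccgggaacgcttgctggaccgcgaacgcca
Cox7a2: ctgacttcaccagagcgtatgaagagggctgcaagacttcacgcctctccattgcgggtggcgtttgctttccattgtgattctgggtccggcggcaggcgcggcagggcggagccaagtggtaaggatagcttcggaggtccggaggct
Ndufa10: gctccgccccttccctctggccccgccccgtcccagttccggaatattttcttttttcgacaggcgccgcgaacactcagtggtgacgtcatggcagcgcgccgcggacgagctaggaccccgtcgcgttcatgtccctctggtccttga
Ndufa5: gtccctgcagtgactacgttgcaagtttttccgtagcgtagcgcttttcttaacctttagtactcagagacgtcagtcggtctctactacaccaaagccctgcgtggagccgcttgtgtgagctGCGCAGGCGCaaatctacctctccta
Sdha: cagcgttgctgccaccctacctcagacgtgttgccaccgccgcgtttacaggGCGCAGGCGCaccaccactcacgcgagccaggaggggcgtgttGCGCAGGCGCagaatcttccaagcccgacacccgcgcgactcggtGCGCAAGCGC

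Of the 40 members, 31 had a promoter in the RefSeq table, each a window of 250 bases before to 50 bases after the start, searched on both strands. The NRF1 motif (GCGCA, any base, GCGC) was present in 6 of 31 members (19.4%), against 7.2% of 17486 protein-coding genes. The YY1 motif AAGATGGCG was present in 4 of 31 members (12.9%), against 2.1%, and the GABPA motif CCGGAAG in 6 of 31 (19.4%), against 13.0%. A gene with several listed starts counts if any of them has the motif. At least 1 of the 3 stood in 15 of 31 members (48.4%), against 3492 of the 17486 coding genes. These are matches of letters. The windows of Ndufa1 and Cox7a2, lower in lines, and of Ndufa10, higher in lines with the deposited values, hold none of the 3. The Ndufa10 difference was not called with quantile normalization, as given below.

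Averaged over the 40 members, log2 intensity was 8.90 ± 0.08 in BAL17VII cells and 8.99 ± 0.04 in BAL17 cells (SD, n = 6 each). It was 9.60 ± 0.16 in BAL17VII brains at day 21, 9.35 ± 0.14 in BAL17 brains at day 28, 9.33 ± 0.27 in BAL17 brains at day 21 and 9.54 ± 0.14 in PBS brains (SD, n = 5 each). Every line array (8.80 to 9.03) lay below every brain array (9.06 to 9.82), while the 4 groups of brains overlapped. Both line means lay below all 4 brain means in 30 members, above them in 1, Ndufa10, and among them in the other 9. The group with the highest mean was BAL17VII brains at day 21 in 26 members and PBS brains in 9 (17 and 18 without BAL17VII brain 1, when the BAL17VII mean was 9.54 ± 0.11, n = 4), and the lowest was BAL17VII cells in 19 and BAL17 cells in 14.

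**Figure D1:**
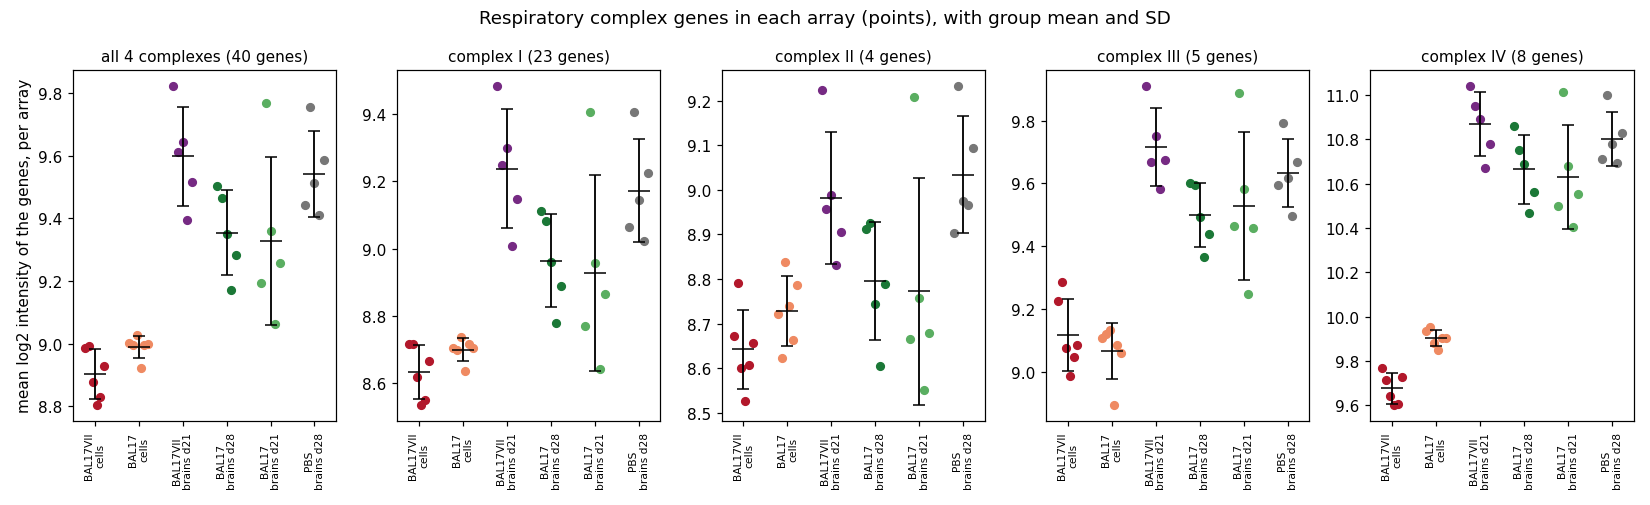
Mean log2 intensity of the respiratory complex genes on each array (points), over all 40 genes and by complex, with the group mean and SD (bars); the panels have their own vertical axes. All 12 line arrays lie below all 20 brain arrays in the panel of all 40 genes, and complex IV shows the widest gap, with means of 9.68 and 9.90 in the lines against 10.80 in PBS brains.

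The comparison of cultured cells with PBS brains sets lymphoma against the tissue it grows in. Against PBS brains, 31 of 40 members (77.5%) were lower and 2 (5%) higher in BAL17VII cells, where 37.6% of 13166 genes tested were lower and 46.6% higher, 84.2% in all (limma, adjusted p under 0.05). In BAL17 cells 31 of 40 were lower and 2 higher as well, where 38.1% of genes were lower and 45.8% higher, 83.9% in all. The members' median difference was -0.46 in BAL17VII cells and -0.43 in BAL17 cells, against 0.13 and 0.11 over all genes tested. The values of 26 members in BAL17VII cells and 28 in BAL17 cells did not overlap those of PBS brains, that is 65% and 70%, close to the 70.7% and 70.8% of all genes, so members stood apart by direction and not by how often they separated. Both comparisons use the same 5 PBS arrays, and lines and brains carry different number series in their descriptions, so tissue cannot be told apart from whatever separates those series.

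Complex IV, cytochrome c oxidase, was lower throughout. All 8 members were lower in both lines without overlap, with a median of -1.26 in BAL17VII cells and -0.92 in BAL17 cells. Cox7a2, the form of subunit 7a found in most tissues, ranged from 8.40 to 8.62 (median 8.57) in BAL17VII cells and from 8.81 to 9.03 (median 8.91) in BAL17 cells, against 10.25, 10.52, 10.30, 10.18 and 10.42 in PBS brains. Both lines lay far below every brain, by -1.79 ± 0.10 and -1.41 ± 0.10 (differences of means ± SE, adjusted p = 1.49e-17 and 8.86e-15). Ndufa4, first described in complex I and now counted with complex IV, ranged from 9.92 to 10.23 (median 10.06) in BAL17VII cells and from 10.63 to 10.75 (median 10.71) in BAL17 cells, against 11.57, 11.85, 11.66, 11.68 and 11.74 in PBS brains. Its difference was -1.65 ± 0.09 in BAL17VII cells and -1.01 ± 0.09 in BAL17 cells (adjusted p = 7.2e-18 and 3e-12), with the 3 groups fully separated. Cox4i1, the regulatory subunit that binds ATP, differed by -1.37 ± 0.13 in each line, and Cox7b by -1.29 ± 0.09 and -0.86 ± 0.09. Cox5a, Cox6c, Cox8a and Cox5b lay between -1.23 and -0.42 in BAL17VII cells and between -0.97 and -0.43 in BAL17 cells.

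In complex III, Uqcrb had the largest difference of any member. This small subunit, needed for assembly of the complex, ranged from 7.99 to 8.23 (median 8.05) in BAL17VII cells and from 7.79 to 8.26 (median 8.05) in BAL17 cells, against 10.19, 10.23, 10.22, 9.96 and 10.14 in PBS brains. The lines overlapped each other and lay below all PBS brains, by -2.07 ± 0.11 and -2.10 ± 0.11 (adjusted p = 3.41e-18 and 2.6e-18). Its 3 probe sets gave -1.90, -2.07 and -2.12 for BAL17VII cells and -1.76, -2.10 and -2.12 for BAL17 cells. The core proteins and cytochrome c1 moved far less. Uqcrc1 differed by -0.33 ± 0.10 in BAL17VII cells and -0.41 ± 0.10 in BAL17 cells, and Cyc1, the cytochrome c1 gene, by -0.34 ± 0.10 and -0.30 ± 0.10. Uqcrc2 was lower in BAL17 cells (-0.22 ± 0.09, adjusted p = 0.0217) and not called in BAL17VII cells (-0.07 ± 0.09, adjusted p = 0.453).

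Complex I members were lower in 17 of 23 cases in each line, with a median of -0.45 in BAL17VII cells and -0.37 in BAL17 cells. Of the 6 core subunits that carry the flavin and iron-sulfur centres or line the quinone site, 4 were lower in each line (Ndufs7, Ndufs8, Ndufv2 and Ndufs3), while Ndufs1 and Ndufv1 were not called. Of the 17 accessory subunits 13 were lower in each line. Ndufa1, an accessory membrane subunit encoded on the X chromosome and needed for assembly, ranged from 6.34 to 6.76 (median 6.61) in BAL17VII cells and from 6.66 to 6.98 (median 6.79) in BAL17 cells, against 8.33, 8.84, 8.79, 8.39 and 8.59 in PBS brains. The lines lay close to the array medians and below all PBS brains, by -1.99 ± 0.14 and -1.77 ± 0.14 (adjusted p = 1.01e-14 and 2.07e-13). Ndufa5 (-1.34 ± 0.11 and -1.01 ± 0.11) and Ndufb5 (-1.30 ± 0.14 and -1.33 ± 0.14) came next. The matrix and membrane-arm subunits Ndufb7, Ndufb2, Ndufs7, Ndufb10, Ndufb8 and Ndufc1 lay between -1.05 and -0.53 in BAL17VII cells.

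In complex II, the succinate dehydrogenase that also works in the tricarboxylic acid cycle, Sdhc, a membrane anchor, was lower by 0.73 ± 0.10 in BAL17VII cells and 0.53 ± 0.10 in BAL17 cells. Sdha, the flavoprotein, differed by -0.40 ± 0.07 and -0.42 ± 0.07. Sdhb, the iron-sulfur subunit, was lower in BAL17VII cells (-0.35 ± 0.12) and not called in BAL17 cells (-0.23 ± 0.12, adjusted p = 0.0715). Sdhd, the other anchor, was called in neither (-0.09 ± 0.12 and -0.04 ± 0.12).

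The 2 members that were higher in lines were Ndufa10 and Uqcrfs1. Ndufa10, an accessory complex I subunit related to nucleoside kinases, ranged from 11.43 to 11.76 (median 11.49) in BAL17VII cells and from 11.50 to 11.58 (median 11.52) in BAL17 cells, against 11.21, 11.36, 11.11, 11.10 and 11.25 in PBS brains. Neither line overlapped PBS brains, and the differences were 0.35 ± 0.08 and 0.33 ± 0.08 (adjusted p = 8.12e-05 and 0.000237), yet quantile normalization over the 32 arrays left 0.03 and 0.02, neither called. Uqcrfs1, the Rieske iron-sulfur protein of complex III, ranged from 9.28 to 9.61 (median 9.40) in BAL17VII cells and from 9.23 to 9.54 (median 9.35) in BAL17 cells, against 9.18, 9.34, 9.19, 9.07 and 9.14 in PBS brains. The lines overlapped with PBS brain 2, and the differences were 0.25 ± 0.07 and 0.18 ± 0.07 (adjusted p = 0.00268 and 0.0213). The call in BAL17 cells was lost with median centring (0.15) and without BAL17 array 3 or PBS brain 4 (0.15 and 0.16). Ndufa6, an accessory complex I subunit, ranged from 7.24 to 7.81 (median 7.53) in BAL17VII cells, against 7.50, 7.69, 7.50, 7.28 and 7.51 in PBS brains, so the groups overlapped. Ndufa6 (0.03 ± 0.11 and 0.05 ± 0.11), Ndufv1 (-0.04 ± 0.13 and 0.03 ± 0.13) and Sdhd were called in neither line. Ndufs1 (-0.14 ± 0.08 and 0.07 ± 0.08) and Ndufb9 (-0.13 ± 0.11 and 0.12 ± 0.11) were also called in neither. Ndufb9 ranged from 10.98 to 11.19 (median 11.08) in BAL17 cells, against 10.79, 11.15, 10.95, 10.82 and 11.03 in PBS brains, again with overlap. Ndufa8 (-0.09 ± 0.10) was not called in BAL17VII cells alone, and Ndufb8 (-0.24 ± 0.12) was not called in BAL17 cells alone.

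**Figure D2:**
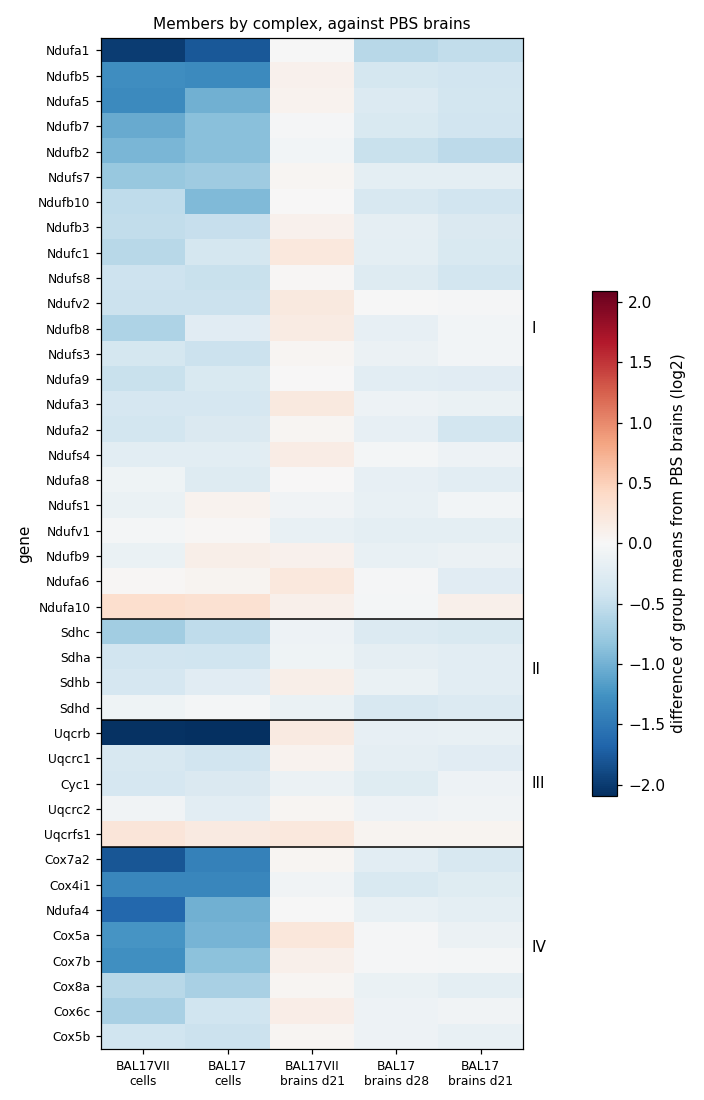
Difference of group means from PBS brains (log2, colour scale) for the 40 members (vertical axis, by complex I to IV) in the 5 other groups (horizontal axis). The 2 columns of cultured cells are blue for most genes, deepest for Uqcrb at -2.07 and -2.10, while Ndufa10 and Uqcrfs1 are red, and the 3 columns of implanted brains stay between -0.59 and 0.23.

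Other mitochondrial genes did not all follow the members. The counts below stand beside 46.6% of all genes higher and 37.6% lower in BAL17VII cells. In BAL17 cells these shares were 45.8% and 38.1%. Of 15 ATP synthase subunits 12 were lower and 1 higher in each line, and of 11 other complex I subunits 8 were lower in each, with 0 higher in BAL17VII cells and 1 higher in BAL17 cells. Uqcrh, a further complex III subunit, differed by -1.62 and -1.28, and Cox6b1, a further complex IV subunit, by -1.14 and -0.86 in BAL17VII and BAL17 cells. Genes of the mitochondrial ribosome, which translates the subunits encoded in mitochondrial DNA, ran the other way: 26 of 40 were higher and 2 lower in BAL17VII cells, and 29 higher and 2 lower in BAL17 cells. Of 18 genes of mitochondrial protein import 13 were higher and 2 lower in BAL17VII cells, and 12 higher and 1 lower in BAL17 cells. The tricarboxylic acid cycle list was mixed, with 7 of 15 higher in each line and 4 lower in BAL17VII cells and 5 in BAL17 cells. Of the 13 subunits encoded in mitochondrial DNA, the 2 with a probe set of their own showed small differences: mt-Co2 differed by -0.23 ± 0.09 and -0.31 ± 0.09, and mt-Nd3 was not called (0.06 ± 0.11 and 0.18 ± 0.11).

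Regulators of mitochondrial gene expression were higher in 13 of 16 cases in each line, where 46.6% and 45.8% of all genes were higher. Twnk, the mitochondrial DNA helicase, was higher by 2.01 ± 0.08 in BAL17VII cells and 2.10 ± 0.08 in BAL17 cells, and Pprc1, a coactivator of the PGC-1 family, by 1.86 ± 0.11 and 2.14 ± 0.11. Nrf1 was higher by 0.65 ± 0.07 and 0.85 ± 0.07, Gabpa by 1.03 ± 0.07 and 0.76 ± 0.07, and Yy1 by 0.49 ± 0.07 and 0.40 ± 0.07. The gene farthest in the other direction was Ppargc1a, which encodes the coactivator PGC-1 alpha, known for driving respiratory gene expression. It ranged from 5.92 to 6.56 in BAL17VII cells and from 6.26 to 6.80 in BAL17 cells, against 10.26, 10.18, 9.97, 9.83 and 9.98 in PBS brains. Of these values 5 of 6 in BAL17VII cells and 3 of 6 in BAL17 cells were at or under their array's median, so the differences from brains have only a bound. With values under an array's median raised to it, a setting added after the data were seen, the differences were -3.57 and -3.51. Raising values alters their spread, so no p is given for them. Tfam, which packages mitochondrial DNA, was not called (0.18 ± 0.13 and -0.01 ± 0.13).

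A subunit form known from heart and skeletal muscle was high in the lymphoma cells. Cox6a2 ranged from 10.69 to 11.11 in BAL17VII cells and from 10.48 to 10.70 in BAL17 cells. It was 7.19, 8.41, 8.15, 7.69 and 8.03 in BAL17VII brains at day 21, 8.22, 7.87, 8.16, 7.94 and 7.99 in BAL17 brains at day 28, and 7.98, 8.49, 7.97, 8.29 and 8.29 in BAL17 brains at day 21, against 7.47, 7.31, 7.47, 7.41 and 7.30 in PBS brains. All line arrays lay above all brains, all BAL17 brains lay above all PBS brains, and BAL17VII brain 1 alone among implanted brains lay below them. The difference from PBS brains was 3.47 ± 0.13 in BAL17VII cells, 3.19 ± 0.13 in BAL17 cells, 0.64 ± 0.16 in BAL17 brains at day 28 and 0.81 ± 0.16 in BAL17 brains at day 21, the last with adjusted p = 0.000313. In BAL17VII brains at day 21 it was 0.50 ± 0.16 and not called (adjusted p = 0.0668), but without BAL17VII brain 1 it was 0.68 ± 0.12 and called, with no overlap (adjusted p = 0.000976). Ndufa4l2, a relative of Ndufa4 known as a hypoxia-induced gene, was higher by 1.12 ± 0.10 in BAL17VII cells and 0.55 ± 0.10 in BAL17 cells, and was too low for a test among brains.

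**Figure D3:**
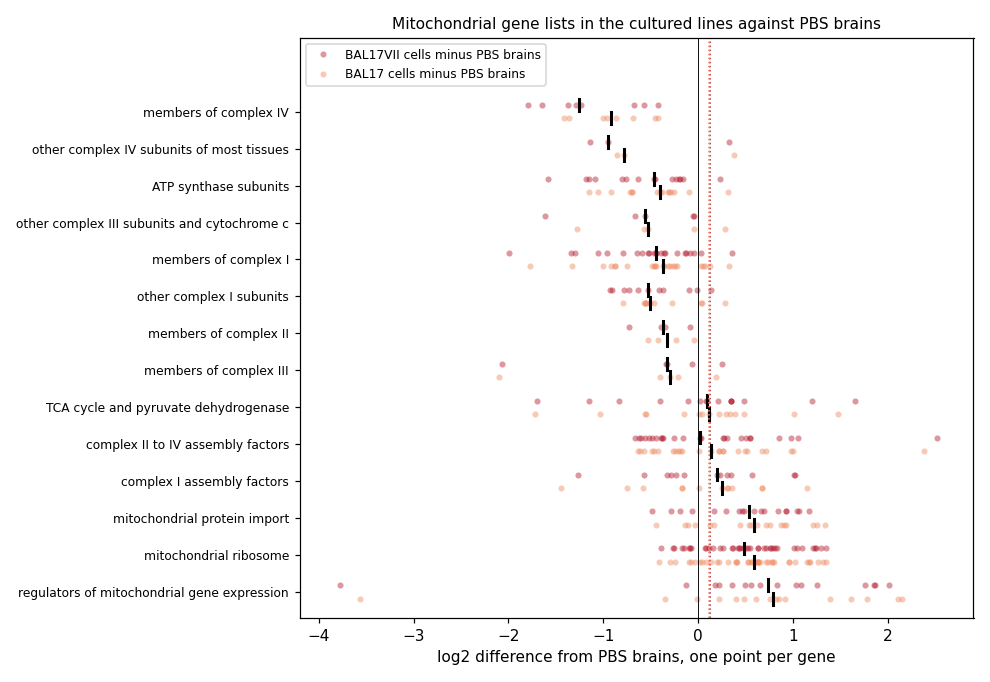
Log2 difference from PBS brains (horizontal axis) of each gene of 14 lists (vertical axis, 1 point per gene) in BAL17VII cells (red, upper) and BAL17 cells (orange, lower), with list medians as black ticks and the medians over all genes tested, 0.13 and 0.11, as dotted lines. Respiratory complex and ATP synthase lists have medians below 0, complex IV lowest, and mitochondrial ribosome, import and regulator lists have medians above 0, with Ppargc1a alone at the far left.

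Between the cultured lines, 10 of 40 members (25%) were lower and 1 (2.5%) higher in BAL17VII cells, where 14.5% of 10717 genes tested were lower and 17.3% higher. The values of 6 members (15%) did not overlap between the lines, against 18.3% of all genes. The members' median difference was -0.05, against 0.00 over all genes. Complex IV held 5 of the 10. Ndufa4 differed by -0.64 ± 0.06 (adjusted p = 3.62e-07), and its values given above did not overlap between the lines. Cox7b ranged from 10.22 to 10.46 (median 10.28) in BAL17VII cells and from 10.62 to 10.80 (median 10.72) in BAL17 cells. The lines were separated there too, by -0.42 ± 0.06 (adjusted p = 3.41e-05), and Cox7a2 by -0.38 ± 0.06 (adjusted p = 0.000203). Cox5a (-0.26 ± 0.07) and Cox6c (-0.25 ± 0.07) were lower with overlap, and Cox4i1, Cox5b and Cox8a were not called (0.00, 0.03 and 0.11).

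Of complex I, Ndufb8 (-0.40 ± 0.07), Ndufa5 (-0.33 ± 0.07), Ndufb9 (-0.26 ± 0.06), Ndufc1 (-0.21 ± 0.07) and the core subunit Ndufs1 (-0.21 ± 0.07) were lower. The exception was Ndufb10, an accessory subunit of the membrane arm, which ranged from 8.39 to 8.92 (median 8.64) in BAL17VII cells and from 8.08 to 8.40 (median 8.25) in BAL17 cells. The ranges overlapped at their edge, and it was higher by 0.39 ± 0.08 (adjusted p = 0.00133). Neither complex II nor complex III had a member called, with differences of -0.20 to 0.02 and of -0.05 to 0.15. Uqcrc2, core protein 2 of complex III, ranged from 10.57 to 10.86 (median 10.63) in BAL17VII cells and from 10.49 to 10.55 (median 10.53) in BAL17 cells. At 0.15 ± 0.06 it did not overlap between the lines at a limma adjusted p of 0.0633, and was called by limma with quantile normalization (adjusted p = 0.033). Ndufa8, an accessory complex I subunit, ranged from 8.47 to 8.56 (median 8.49) in BAL17VII cells and from 8.12 to 8.51 (median 8.31) in BAL17 cells. These overlapped, and the difference (0.18 ± 0.07, adjusted p = 0.0594) was called by limma with the filter at percentile 75 (adjusted p = 0.0279). Outside the members, Ndufa4l2 was higher by 0.57 ± 0.08 and Cox6a2 by 0.28 ± 0.08 in BAL17VII cells, where Ndufa4 was lower. Of the regulators Polg2 (0.47 ± 0.10) and Gabpa (0.27 ± 0.06) were higher, and Tfb1m (-0.36 ± 0.07), Pprc1 (-0.28 ± 0.08) and Nrf1 (-0.20 ± 0.06) lower.

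In BAL17 brains at day 21, 8 of 40 members (20%) were lower than in PBS brains and 0 were higher, where 32% of 11965 genes tested were lower and 13.1% higher, 45.1% in all. That share lies below the background with all arrays in the fit. Of the 40 differences 38 were negative, with a median of -0.21 against -0.11 over all genes. Members deviated together within brains (mean correlation 0.78), so these are not separate observations. The members' means per array overlapped, at 9.06 to 9.77 in BAL17 brains and 9.41 to 9.76 in PBS brains. The 8 were Ndufb2, Ndufa1, Ndufb10, Ndufa5 and Ndufs8 of complex I, Sdhc and Sdha of complex II and Cox7a2 of complex IV, and no complex III member was called. Ndufb2, an accessory subunit, was 7.23, 7.68, 7.43, 7.14 and 7.34 in BAL17 brains, against 7.93, 8.10, 7.78, 7.77 and 7.99 in PBS brains. It was the 1 member (2.5%, against 26.6% of all genes) without overlap, with a difference of -0.55 ± 0.11 (adjusted p = 0.000601). Ndufa1 was 7.74, 8.62, 8.31, 7.80 and 7.87 in BAL17 brains, against the PBS values above; BAL17 brain 2 lay among them, and the difference was -0.52 ± 0.17 (adjusted p = 0.0153). Ndufa5 was 9.26, 9.94, 9.58, 9.33 and 9.51 in BAL17 brains, against 9.88, 10.06, 9.81, 9.90 and 9.90 in PBS brains, with BAL17 brain 2 again inside (-0.39 ± 0.12, adjusted p = 0.0139). Ndufb10 was 8.61, 9.17, 8.77, 8.44 and 8.76 in BAL17 brains, against 9.08, 9.44, 9.10, 8.95 and 9.22 in PBS brains. BAL17 brain 2 was once more the one inside, and the difference was -0.41 ± 0.13 (adjusted p = 0.0146), a call lost without BAL17 brain 4 (adjusted p = 0.0524) or PBS brain 2 (adjusted p = 0.0503). Ndufa10 (0.11 ± 0.08) and Uqcrfs1 (0.06 ± 0.08), which were higher in cultured cells, had the only positive differences. Ndufa10 was 11.34, 11.56, 11.25, 11.12 and 11.30 in BAL17 brains and Uqcrfs1 was 9.27, 9.45, 9.11, 9.08 and 9.31, and both overlapped the PBS values given above.

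These counts turned on single brains. Without BAL17 brain 2 the number of members lower was 26 (65%), where 36.1% of all genes were lower, so the members' share then lay above the background. Without BAL17 brain 1 the number was 3 (7.5%, against 27.8%), without BAL17 brain 4 or PBS brain 2 it was 4 (10%, against 27.3% and 26.5%), and without PBS brain 5 it was 5 (12.5%, against 28.9%). In each of the 5 other fits that left out 1 array the members' share stayed below that of all genes. Markers of several kinds of brain cell were lower as well. Neuron markers were lower in 11 of 12, with group means of 10.41 ± 0.05 in BAL17 brains at day 21 and 10.86 ± 0.06 in PBS brains, ranges of 10.37 to 10.50 and 10.79 to 10.93. Myelin markers were lower in 7 of 8 (8.78 to 9.56 in BAL17 brains, against 9.62 to 10.06 in PBS brains), astrocyte markers in 7 of 8 (8.89 to 9.51, against 9.52 to 9.87) and cerebellum markers in 6 of 7 (8.22 to 9.15, against 8.95 to 9.65). The mean differences of these lists were -0.70, -0.60 and -0.75, beside -0.45 for neuron markers. Striatum markers averaged 9.27 ± 0.13 in BAL17 brains and 9.43 ± 0.56 in PBS brains, and choroid plexus markers 7.93 ± 0.25 and 8.04 ± 0.38. Both of these lists overlapped between the groups. B lineage markers were higher in 8 of 9 tested and lower in 1, and their mean ranged from 7.39 to 7.94, against 5.94 to 6.24. In whole brain RNA fewer cells of a type and less RNA per cell cannot be told apart, and the part of these markers in the members' values was not tested. Among other lists, 3 of 15 ATP synthase subunits and 3 of 11 other complex I subunits were lower and none higher, while 2 of 39 mitochondrial ribosome genes were higher and 3 lower. Pprc1 was higher by 0.45 ± 0.12, Ppargc1b lower by 0.36 ± 0.11, and Ppargc1a was not called (-0.18 ± 0.09, adjusted p = 0.0978).

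In BAL17 brains at day 28, 4 of 40 members (10%) were lower than in PBS brains and 0 higher, against 21.6% and 8.87% of all genes. Again 39 of 40 differences were negative, all but that of Uqcrfs1, with a median of -0.18 against -0.10, and 6 members (15%) did not overlap, against 22.5% of all genes. Ndufa1 was 8.21, 8.29, 8.10, 7.51 and 7.90 in BAL17 brains at day 28, all below the PBS range of 8.33 to 8.84, and differed by -0.59 ± 0.17 (adjusted p = 0.0122). Ndufb2 was 7.74, 7.52, 7.48, 7.31 and 7.22, all below the PBS range of 7.77 to 8.10, and differed by -0.46 ± 0.11 (adjusted p = 0.0052). Both membrane anchors of succinate dehydrogenase were lower. Sdhd was 8.04, 8.03, 7.72, 7.53 and 7.86 in BAL17 brains, against 7.98, 8.35, 8.13, 8.03 and 8.39 in PBS brains, with overlap (-0.34 ± 0.13, adjusted p = 0.0454). Sdhc was 8.85, 8.80, 8.67, 8.54 and 8.69 in BAL17 brains, against 8.92, 9.09, 8.98, 8.97 and 9.06 in PBS brains, without overlap (-0.29 ± 0.10, adjusted p = 0.0367). The Sdhc call was lost with quantile normalization (-0.22) and without BAL17 brain 3, 4 or 5 or PBS brain 2, 3 or 5, and without any 1 of those 6 the count was 2. Uqcrfs1 was 9.25, 9.31, 9.14, 9.21 and 9.28 in BAL17 brains at day 28, which overlapped the PBS values (0.05 ± 0.08, not called). At day 28 neuron markers were lower in 8 of 12, with means of 10.49 to 10.62 in BAL17 brains against 10.79 to 10.93 in PBS brains, and myelin markers in 8 of 8 (8.90 to 9.29, against 9.62 to 10.06). Striatum markers were lower in 5 of 5 (7.86 to 8.87, against 8.52 to 9.997), choroid plexus markers in 6 of 6 (6.51 to 7.68, against 7.50 to 8.55) and astrocyte markers in 5 of 8 (9.12 to 9.47, against 9.52 to 9.87). B lineage markers were higher in 8 of 9 (7.72 to 7.999, against 5.94 to 6.24), and the part of these lists in the members' values was not tested. Both BAL17 comparisons use the same PBS arrays, and Ndufa1, Ndufb2 and Sdhc were lower in each. Of other genes at day 28, mt-Nd3, a complex I subunit encoded in mitochondrial DNA, was higher by 0.54 ± 0.12 (adjusted p = 0.00217), and Ppargc1a was lower (-0.24 ± 0.09, adjusted p = 0.0422).

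In BAL17VII brains at day 21, limma called 0 of 40 members against PBS brains, where 3.37% of 11965 genes were higher and 1.64% lower, 5.01% in all. None was without overlap, against 3.68% of all genes. At an unadjusted p under 0.05 there were 2, Uqcrfs1 (0.23 ± 0.08, adjusted p = 0.0876) and Cox5a (0.23 ± 0.11), both higher, and 1 member was called under each of quantile normalization, the replicate block and leaving out BAL17VII brain 4. Without BAL17VII brain 1 the count was 0. The 40 differences ran from -0.16 to 0.23 with a standard error of 0.08 to 0.18, 29 of them positive, with a median of 0.05 against -0.03 over all genes. Their mean was 0.06, but without BAL17VII brain 1 it was -0.0007 and 9 of the 40 differences turned sign. Ndufv1, which binds NADH and the flavin, was lowest, with 9.34, 8.60, 9.16, 8.97 and 9.10 in BAL17VII brains, against 8.88, 9.42, 9.08, 9.12 and 9.44 in PBS brains, and the groups overlapped widely (-0.16 ± 0.15). Sdhd was 8.36, 7.85, 8.07, 7.94 and 7.96 in BAL17VII brains, against 7.98, 8.35, 8.13, 8.03 and 8.39 in PBS brains (-0.14 ± 0.13). Cyc1 was 9.91, 9.53, 9.76, 9.63 and 9.75 in BAL17VII brains, against 9.76, 10.06, 9.69, 9.72 and 9.93 in PBS brains (-0.12 ± 0.11). Both overlapped, and BAL17VII brain 1 was the highest of its group in each. Neuron markers had 1 of 12 lower, and B lineage markers 6 of 9 higher. Cerebellum markers averaged 8.68 ± 0.69 in BAL17VII brains (8.005 to 9.56), against 9.44 ± 0.29 in PBS brains (8.95 to 9.65), with overlap. The part of these lists in the members' values was not tested.

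BAL17VII brains at day 21 had higher levels of 11 of 40 members (27.5%) and lower levels of 0 than BAL17 brains at day 21, where 17.3% of 11965 genes were higher and 6.82% lower. Of the 40 differences 37 were positive, with a median of 0.24 against 0.07 over all genes, and 0 members were without overlap, against 10.2% of all genes. Complex I, with 23 of the 40 members, supplied 8 of the 11. That is 34.8% of its members, against 0%, 20% and 25% in complexes II, III and IV. The 8 were 7 of 17 accessory subunits (Ndufc1, Ndufa1, Ndufb5, Ndufb2, Ndufa5, Ndufa6 and Ndufb10) and 1 of 6 core subunits (Ndufs8). The others were Cox7a2 (0.38 ± 0.12) and Cox5a (0.35 ± 0.11) of complex IV and Uqcrb (0.35 ± 0.13) of complex III. Ndufc1 was 8.85, 8.73, 8.78, 8.44 and 8.40 in BAL17VII brains, against 8.07, 8.46, 8.12, 7.73 and 8.14 in BAL17 brains. BAL17 brain 2 alone reached the BAL17VII range, and the difference was 0.54 ± 0.13 (adjusted p = 0.0062). A second probe set of Ndufc1, not used here, showed a smaller gap, with means of 7.49 and 7.22. Ndufb2 was 8.17, 7.68, 7.84, 7.70 and 7.86 in BAL17VII brains, against 7.23, 7.68, 7.43, 7.14 and 7.34 in BAL17 brains, overlapping through BAL17 brain 2 (0.49 ± 0.11, adjusted p = 0.00465). Ndufa6 was 7.85, 7.75, 7.74, 7.51 and 7.78 in BAL17VII brains, against 7.08, 7.83, 7.24, 6.98 and 7.17 in BAL17 brains, with the same brain as the exception (0.47 ± 0.12, adjusted p = 0.00912).

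The negative differences were those of Ndufs1 (-0.01 ± 0.08), Ndufa10 (-0.01 ± 0.08) and Cyc1 (-0.01 ± 0.11), none called. Ndufs1 was 9.85, 9.61, 9.80, 9.76 and 9.72 in BAL17VII brains, against 9.75, 9.96, 9.80, 9.49 and 9.79 in BAL17 brains. Ndufa10 was 11.39, 11.46, 11.35, 11.13 and 11.19 in BAL17VII brains, and Cyc1 was 9.62, 10.07, 9.77, 9.43 and 9.72 in BAL17 brains, with the other group of each given above. In all 3 genes the BAL17VII brains lay within the range of the BAL17 brains, which brain 2 topped. The count was 30 (75%) without BAL17 brain 2, where 24.4% of all genes were higher. It was 5 (12.5%, against 12.5% of all genes) without BAL17 brain 1, 4 (10%, against 11.3%) without BAL17 brain 4 and 7 (17.5%, against 12.1%) without BAL17 brain 5. It was 4 (10%, against 10.3%) without BAL17VII brain 1 and 6 (15%, against 14%) without BAL17VII brain 3. The 4 called without BAL17VII brain 1 were Ndufc1 (0.49 ± 0.14), Ndufa6 (0.43 ± 0.13), Ndufa5 (0.41 ± 0.13) and Ndufb2 (0.41 ± 0.11), with limma adjusted p of 0.0215, 0.0273, 0.0333 and 0.018. Marker levels differed in the same comparison: neuron markers were higher in 7 of 12 (means of 10.59 to 10.88 in BAL17VII brains and 10.37 to 10.50 in BAL17 brains), myelin in 7 of 8 and astrocyte in 6 of 8. Cerebellum markers averaged 8.68 ± 0.69 in BAL17VII brains and 8.69 ± 0.35 in BAL17 brains. Pituitary markers, over 6 genes, averaged 5.61 to 9.52 in BAL17VII brains and 5.46 to 5.62 in BAL17 brains, against 5.65 to 6.75 in PBS brains. B lineage markers were lower in 7 of 9 (6.09 to 7.61 in BAL17VII brains and 7.39 to 7.94 in BAL17 brains), and the part of these differences in the members' values was not tested. Of the regulators Pprc1 (-0.40 ± 0.12) and Polg (-0.19 ± 0.07) were lower.

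Between BAL17 brains at day 28 and at day 21, limma called 0 of 40 members, where 1.01% of 11965 genes were higher and 0.493% lower, 1.5% in all. Values without overlap were found for 0 members, against 5.22% of all genes. At an unadjusted p under 0.05 the count was also 0, and 1 was called without BAL17 brain 2 of day 21. Differences ran from -0.14 for Ndufa10 to 0.22 for Ndufa6, with a median of 0.03 against 0.01 over all genes. Besides Ndufa10, the most negative were Cyc1 (-0.14 ± 0.11) and Ndufb8 (-0.10 ± 0.14). Ndufa10 was 11.22, 11.23, 11.16, 11.07 and 11.16 at day 28, and Cyc1 was 9.71, 9.78, 9.56, 9.41 and 9.48, against the values of day 21 above. Ndufb8, an accessory complex I subunit, was 8.95, 9.08, 8.89, 8.63 and 8.64 at day 28, against 8.89, 9.38, 8.99, 8.64 and 8.82 at day 21. The days overlapped in all 3, and the brain farthest above the others was brain 2 of day 21.

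Whether the difference between the lines is the same in brains as in culture was tested as a difference of differences over all 32 arrays, a comparison added after the results above were known. BAL17VII minus BAL17 was more positive at day 21 in brains than in culture for 16 of 40 members and more negative for 0, where 14.3% of 13166 genes were called one way and 10.9% the other. For Ndufa4 the difference was 0.19 in brains and -0.64 in culture, which gives 0.83 ± 0.13 (adjusted p = 8.79e-06). For Ndufa5 it was 0.47 in brains and -0.33 in culture, which gives 0.80 ± 0.15 (adjusted p = 0.000173). For Cox7a2 it was 0.38 in brains and -0.38 in culture (0.75 ± 0.14, adjusted p = 0.000165), and for Ndufc1 0.54 and -0.21 (0.75 ± 0.16, adjusted p = 0.000668). Thus in Ndufa5, Ndufc1, Cox7a2 and Cox5a the lines' order was opposite in brains and in culture with a call on each side. Without BAL17VII brain 1 the calls in brains of Cox7a2 and Cox5a were lost (0.33 and 0.31, limma adjusted p = 0.0782 and 0.0656). For Ndufb10, higher with BAL17VII in both, the values were 0.42 and 0.39, and their difference was 0.03 ± 0.16 (adjusted p = 0.914). The count was 10 (25%) without BAL17 brain 4 or BAL17VII brain 1 of day 21, where 11.2% and 10.7% of all genes were called that way. A brain sample holds mostly host tissue, and the neuron, myelin and B lineage values given for the brain comparison stand beside this one too; their part was not tested.

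**Figure D4:**
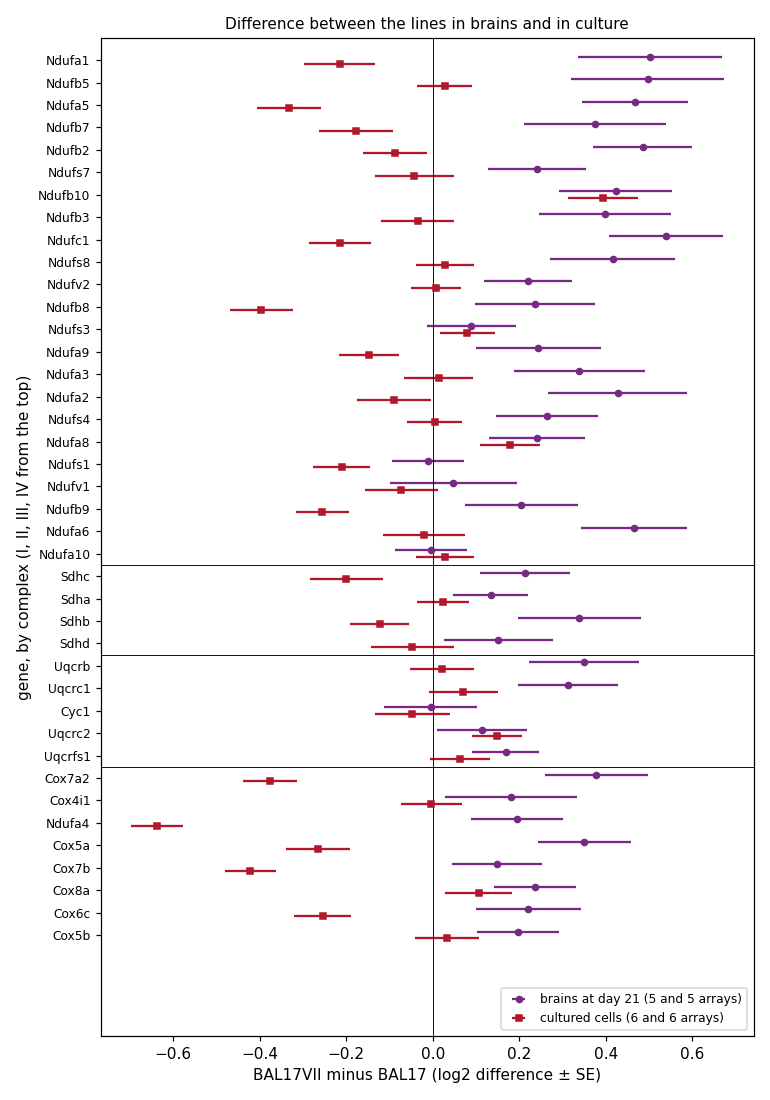
BAL17VII minus BAL17 (log2 difference ± SE, horizontal axis) for the 40 members (vertical axis, complex I to IV from the top) in brains at day 21 (purple circles) and in cultured cells (red squares). Purple points lie right of 0 for 37 genes, and red points lie left of 0 for 24, farthest for Ndufa4 at -0.64, with Ndufb10 alone far right of 0 in both.

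Within each group of brains the members were high or low together. BAL17 brain 2 of day 21 was the highest of its 5 in 40 of 40 members, and brain 4 the lowest in 30. The members' mean was 9.77 in brain 2 and 9.06 to 9.36 in the other 4. BAL17VII brain 1 was highest in 35 members and brain 4 lowest in 28, BAL17 brain 4 of day 28 was lowest in 30, and PBS brain 2 was highest in 37. As a description over 20 brain arrays, which share their groups' means and the array's own quality, the mean correlation between members' deviations from their group means was 0.78, and over the 12 line arrays it was 0.20. ATP synthase subunits gave 0.86 over brains, myelin markers 0.79, mitochondrial ribosome genes 0.52 and neuron markers 0.14.

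Other lists moved with these brains. In BAL17 brain 2 of day 21 the members stood 0.44 above their group mean, ATP synthase subunits 0.44, mitochondrial ribosome genes 0.32, myelin markers 0.48, astrocyte markers 0.38 and neuron markers 0.09, with B lineage markers at 0.04. In PBS brain 2, which received no lymphoma cells, members stood 0.21 above, ATP synthase subunits 0.20, myelin markers 0.28 and neuron markers 0.07. In BAL17VII brain 1 members stood 0.23 above and B lineage markers 0.97 below. What these brains share was not tested.

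**Figure D5:**
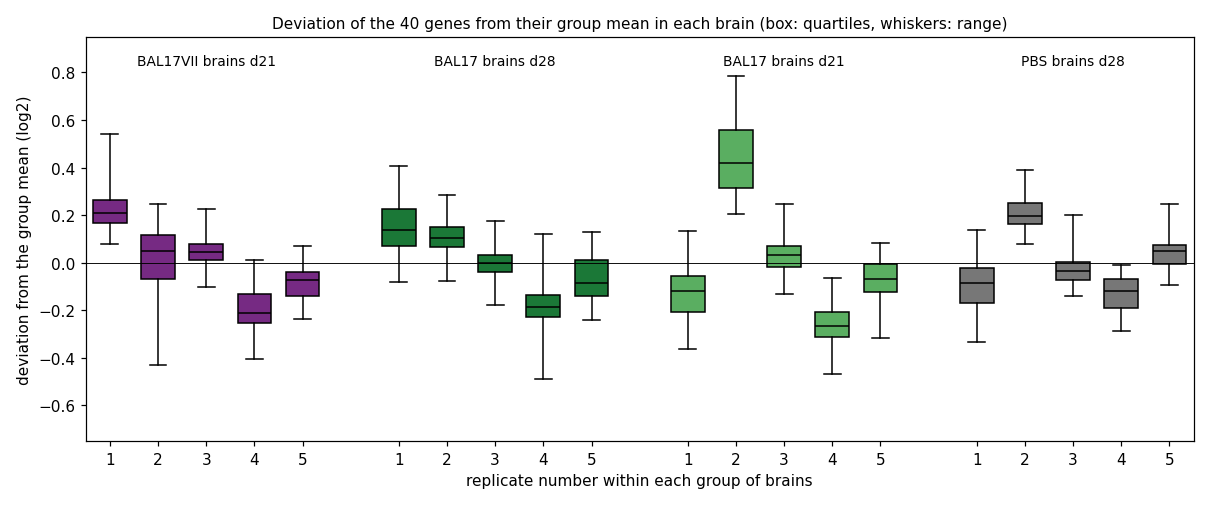
Deviation of the 40 members from their group mean (log2, vertical axis) in each brain (horizontal axis, replicate number), as boxes of quartiles with a median line and whiskers over the full range. The box of BAL17 brain 2 of day 21 lies wholly above 0, as do those of PBS brain 2 and BAL17VII brain 1.

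Several probe sets were available for 6 members, and for 1 the choice among them changed a direction in the lines against PBS brains. The unused probe set of Ndufc1 gave 0.10 for BAL17 cells minus PBS brains, against -0.37 for the one used, while both gave lower values in BAL17VII than in BAL17 cells (-0.30 and -0.21). In brains the unused probe set averaged 7.49 with BAL17VII at day 21, 7.22 with BAL17 at day 21 and 7.49 with PBS. The one used averaged 8.64, 8.10 and 8.42 in the same groups, so its gaps from BAL17VII brains were wider. For Ndufs3, Uqcrb, Cox5b, Cox6c and Cox7b all probe sets gave the same direction in the lines against PBS brains. Many of these small genes have processed pseudogenes, and shared probes leave their values uncertain to that extent.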

How the data were processed

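The deposited values are array intensities on a linear scale (2.72 to 17825), which the authors made in Expression Console by the RMA method, as the submitters' processing notes state without a version. RMA corrects background, quantile-normalizes arrays and summarises probes. Whether lines and brains were normalized together is not given in the sources used here. Median intensity per array was 81.7 to 93.0. The number of arrays limits the precision.

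Log2 of the deposited intensity was taken before all other steps. Of 35556 probe sets 21789 carried 1 symbol, 1621 several and 12146 none. A gene entered a fit if it exceeded the array median on no fewer arrays than the smallest group has, and all 40 members passed in every fit with this filter. With the filter at percentile 75, 34 members passed over the line arrays and 37 over the brain arrays or all 32. Fits used limma 3.58.1 in R 4.3.3 (group means, empirical Bayes, two-sided, Benjamini-Hochberg over all genes, called at an adjusted p under 0.05) over 12 line arrays, 20 brain arrays, or all 32 where lines met brains. Members, gene lists and tests were chosen with earlier results of these data known, so lists have counts and medians and no test. Values in every array are given for up to 3 members of smallest adjusted p and up to 3 against the majority per comparison; other genes with array values were picked after their values were seen. Alternatives were quantile normalization, median centring, other filters, probe-set means, trended and robust moderation, array weights, a block for replicate number, fits of only the groups compared or of all arrays, and leaving out each array.

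On simulated data with 200 changed genes, changes of 0.5 and 1 were recovered in 98% and 100% for BAL17VII against BAL17 cells (10659 genes, 5.71% false calls), 78% and 100% when day 21 BAL17 brains were set against PBS brains (11920 genes, 3.78%), and 89% and 99% for BAL17VII cells against PBS brains (12583 genes, 2.59%). Noise was drawn independently for each gene, and the changed genes had a mean over 1 above the median. All other genes were left unchanged. In the real brains the members deviated together (mean correlation 0.78), and 45.1% of genes were called in BAL17 brains at day 21. These rates therefore check the code and do not carry over to the calls in the real data.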

Additional observations from a re-analysis of the deposited data

Results flagged for a closer look

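The difference between the lines, BAL17VII minus BAL17, differed between brains at day 21 and culture for 16 of 40 members by the test of that difference (limma, adjusted p under 0.05). All 16 were more positive in brains, where 14.3% of 13166 genes were called that way and 10.9% the other. The values, brains minus culture, were 0.83 for Ndufa4, 0.80 for Ndufa5, 0.75 for Cox7a2, 0.75 for Ndufc1, 0.72 for Ndufa1, 0.63 for Ndufb8, 0.62 for Cox5a, 0.57 for Ndufb2, 0.57 for Cox7b and 0.55 for Ndufb7. They were 0.52 for Ndufa2, 0.49 for Ndufa6, 0.47 for Cox6c, 0.46 for Ndufb9, 0.46 for Sdhb and 0.41 for Sdhc. Without BAL17VII brain 1 the calls of Ndufa2, Ndufa6, Ndufb7, Ndufb9, Sdhb and Sdhc were lost (limma, adjusted p of 0.053 to 0.106).

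In 6 of 156 groups of values examined, 1 array stood far from the others, a smaller share than the about 1 in 20 that chance gives. The flags are therefore a description only, and the mean of all members contains those of the complexes. Cultured BAL17 array 4 was lowest of its 6 in the mean of complex I (8.64, nearest 8.70), of complex III (8.90, nearest 9.06) and of all members (8.92, nearest 8.99). BAL17 brain 2 of day 21 was highest in Sdhd (8.33, nearest 7.82) and Sdhc (9.12, nearest 8.64). Cultured BAL17 array 2 was highest in Ndufa6 (7.88, nearest 7.56).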

How the results depend on the processing

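The lower levels of most members in both lines than in PBS brains kept a negative mean difference when any single array was left out, with 28 to 34 members called. Counts among brains depended on the fit. With BAL17 brains of day 21 set against PBS brains, 14 members were called with median centring, 22 with array weights and 15 with the replicate block. With the day 28 brains in place of these it was 7 with quantile normalization, 2 without the filter, 11 with array weights and 11 with only the 2 groups. For BAL17VII against BAL17 brains at day 21 it was 19 with array weights, 20 with the replicate block and 5 with only the 2 groups. For BAL17VII brains against PBS brains 1 member was called with quantile normalization and 1 with the replicate block. The causes were not tested. Numbers were to be taken as pairs only if every pair of same-numbered arrays correlated over 0.1, and 13 of 41 did (r of -0.32 to 0.48). Among brains, number 4 was over 0.1 in 5 of 5 comparisons (0.14 to 0.38), number 2 in 3, number 5 in 1 and numbers 1 and 3 in 0, so some numbers deviated together and a shared source was not tested. The block moved no other count by over 1.5 times.

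Leaving out single arrays gave 3 to 26 members called for day 21 BAL17 brains against PBS, 2 to 5 at day 28, 0 to 1 for BAL17VII brains against PBS, 4 to 30 for BAL17VII against BAL17 brains and 0 to 1 for day 28 against day 21. It gave 31 to 34 for BAL17VII cells and 28 to 33 for BAL17 cells against PBS, 9 to 13 between the lines and 10 to 23 for the difference between brains and culture. The mean difference of members ran, in the same order of the first 8 comparisons, from -0.32 to -0.15, -0.23 to -0.13, -0.0007 to 0.11, 0.20 to 0.38, -0.04 to 0.14, -0.67 to -0.59, -0.59 to -0.50 and -0.10 to -0.07.

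In every alternative run, 0 called members among those tested in it turned sign. Those of the named members that turned follow. Against PBS brains, quantile normalization gave -0.0828 for Ndufa10 in BAL17 brains at day 21, -0.00085 for Ndufa6 in BAL17VII cells and -0.0999 for Ndufb9 in BAL17 cells. Median centring gave -0.0114 at day 21 and -0.002 at day 28 for Uqcrfs1 in BAL17 brains, and -0.0188 for Ndufa6 in BAL17VII cells, where array weights gave -4.6e-05. Between BAL17VII and BAL17 brains at day 21, Ndufa10 gave 0.0541 with quantile normalization and 0.0524 with median centring. Ndufs1 gave 0.0463 with median centring and 0.0126 with array weights, and Cyc1 0.0524 and 0.0494. Leaving out single arrays gave -0.0526 to 0.0566 for Ndufa10, -0.0776 to 0.0398 for Ndufs1 and -0.0773 to 0.0821 for Cyc1 there, -0.0268 to 0.0859 for Ndufa6 in BAL17VII cells and -0.1794 to 0.00453 for Ndufb8 at day 28 against day 21.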
